A study of Mus musculus with 8 samples.

Results

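Expression of 10 genes of growth hormone, insulin-like growth factor (IGF) and insulin signalling was compared in the livers of ISOGK-treated and vehicle-treated mice. The genes were taken from the deposited count table by symbol. They are *Ghr*, *Socs2*, *Cish*, *Igf1*, *Igfals*, *Igfbp1*, *Igfbp2*, *Insr*, *Irs1* and *Irs2*, and all 10 were found among the 16540 genes of the table. The 8 mice, controls included, were male *Apoe*-/- animals, a knockout that raises plasma cholesterol, and were fed a Western diet. In the ISOGK group, 4 mice received isoginkgetin (ISOGK), a biflavonoid from *Ginkgo biloba*, at 20 mg/kg/day for 8 weeks by intraperitoneal injection, and in the vehicle group 4 mice received the carrier alone, named DMSO in the table. *Apoe* had 3252 to 6489 counts in every library, so the genotype rests on the labels. Neither the age of these mice nor whether they were fasted before the livers were taken is given in the sources used here. RNA of whole liver was sequenced, 1 library per mouse, so that fewer cells of a type and less RNA per cell cannot be told apart.

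Growth hormone from the pituitary binds its receptor GHR on hepatocytes, and the kinase JAK2 and the transcription factor STAT5 carry the signal to genes such as *Igf1*, *Igfals*, *Socs2* and *Cish*. IGF1 leaves the liver for the blood, where it travels in a complex with binding proteins and the acid-labile subunit. Insulin acts on the same cells through its receptor INSR and the adaptor proteins IRS1 and IRS2, and it holds down transcription of *Igfbp1* and *Irs2* through the forkhead factor FOXO1.

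Libraries held 17457106 to 24461854 reads assigned to genes, without a difference in totals beyond their spread (two-sided exact permutation test, p = 0.2). The factors that scale libraries for their make-up (TMM) were 1.02 to 1.09 with vehicle and 0.883 to 1.01 with ISOGK, without overlap. Counts of the 10 genes lay between 89 and 14517 per library. Hepatocyte markers (6 genes, *Alb* and *Ttr* among them) summed to 139929 to 151390 CPM (counts scaled to a common library size) with vehicle and 126481 to 165743 CPM with ISOGK. A list of 10 skeletal muscle markers summed to 69.9 CPM in vehicle-treated mouse 4 and to at most 0.576 CPM in any other mouse, and all 10 were highest in that mouse. No sum of the stellate, sinusoidal endothelial, cholangiocyte or lymphocyte markers separated the groups, although 1 of 5 cholangiocyte markers, *Sox9*, was called higher (edgeR adjusted p = 0.0494) and their sum was 28.2 to 69.1 CPM with ISOGK and 27.5 to 34.8 CPM with vehicle.

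Genes were called when the adjusted p of the quasi-likelihood test of edgeR was under 0.05. By this rule 2 of the 10 genes fell with ISOGK, *Ghr* and *Igfals*, and 0 rose, while 8 did not pass. Over all 12307 tested genes 3.44% were called lower, 4.11% higher and 7.55% in either direction. With a log2 fold change over 1 in size as well, 1.63% of all genes and 0 of the 10 were called. At an unadjusted p under 0.05 there were 3 of the 10 genes, *Igfbp1* being the third. By its p *Igfbp1* held place 2874 of the 12307 tested genes, so an unadjusted p under 0.05 was common over all genes. For *Ghr* and *Igfals* the highest ISOGK value was under the lowest vehicle value, as in 7.36% of all tested genes (15.3% in either direction). Of the other 8 genes, 6 had a higher and 2 a lower fitted value, and the median log2 fold change was 0.037 over the 10 genes and 0.00176 over all tested genes.

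**Figure D1:**
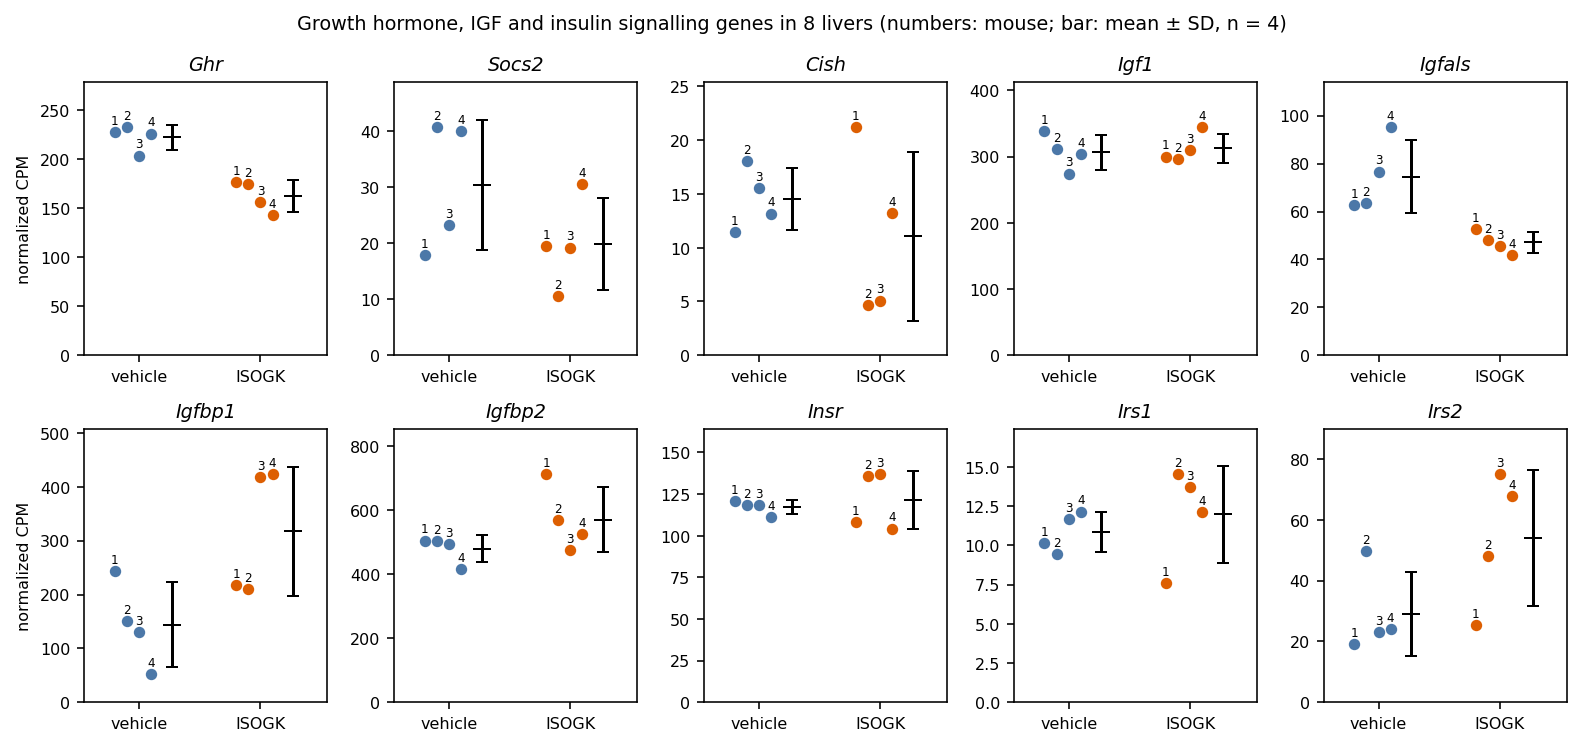
Normalized CPM (scaled with TMM factors, vertical axis from 0) of each of the 10 genes in the 4 vehicle-treated (blue) and 4 ISOGK-treated (orange) mice; numbers name the mouse and bars show mean ± SD. The groups are separate for *Ghr* and *Igfals* and overlap in the other 8 panels.

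*Ghr* encodes the growth hormone receptor, through which all hepatic actions of the hormone pass. It lies on chromosome 15 of GRCm38 from 3317760 to 3583492, on the minus strand. Vehicle-treated mice 1 to 4 had 228, 232, 203 and 226 normalized CPM, and ISOGK-treated mice 1 to 4 had 177, 175, 156 and 142. The lowest vehicle-treated mouse thus stood above the highest ISOGK-treated mouse. The mean level fell from 222 ± 12.9 to 162 ± 16.3 CPM (SD over 4 mice), by 26.9%, with -0.45 as its log2 fold change (95% interval -0.67 to -0.24, SE 0.10, edgeR adjusted p = 0.0181). The call was lost in 3 of 16 alternatives. Without vehicle-treated mouse 1, 2 or 4, the log2 fold change was -0.44, -0.43 or -0.45, and the edgeR adjusted p was 0.0527, 0.0676 or 0.0511. RefSeq gives 2 promoters for *Ghr*, and neither held any of the motifs searched for here.

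*Cish* and *Socs2* encode feedback inhibitors that STAT5 switches on and that then dampen cytokine and growth hormone receptors. *Cish* lies on chromosome 9 from 107296026 to 107302784, plus strand, where 2 predicted genes overlap it on the other strand. Its promoter is shown because it holds adjoining copies of the STAT motif TTCNNNGAA, which reads the same on both strands and was found in 8.3% of 32851 RefSeq promoters. The window runs 5′ to 3′ on the plus strand from 250 bases before the start site to 30 bases after it, chr9:107296409-107296688 in GRCm38, and capitals mark the 2 copies, at the start site and 11 bases after it.
Cish: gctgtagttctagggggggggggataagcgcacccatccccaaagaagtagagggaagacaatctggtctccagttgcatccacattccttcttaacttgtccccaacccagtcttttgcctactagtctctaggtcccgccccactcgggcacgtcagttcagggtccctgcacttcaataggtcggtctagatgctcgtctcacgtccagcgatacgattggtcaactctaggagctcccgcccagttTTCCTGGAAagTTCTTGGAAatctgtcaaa

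*Cish* itself was not called. Vehicle-treated mice 1 to 4 had 11.4, 18.1, 15.5 and 13.2 CPM, against 21.2, 4.70, 5.09 and 13.2 CPM in ISOGK-treated mice 1 to 4. Both the highest and the lowest values of all 8 mice were in the ISOGK group, whose coefficient of variation was 70.8% against 19.8% in the vehicle group. The log2 fold change was -0.39 (95% interval -1.50 to 0.71, edgeR adjusted p = 0.668).

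*Socs2* (chromosome 10, 95385362 to 95417180, minus strand) likewise varied widely within groups. The vehicle-treated mice had 17.9, 40.7, 23.2 and 39.9 CPM, and the ISOGK-treated mice 19.4, 10.5, 19.2 and 30.5 CPM. Vehicle-treated mouse 1 lay below 3 of the 4 ISOGK-treated mice. The log2 fold change was -0.61 with a 95% interval from -1.47 to 0.25 (edgeR adjusted p = 0.365), which holds a fall to 0.360 of the vehicle level as well as a rise of 1.19-fold.

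*Igf1* encodes the growth factor itself, for which the liver is the main source in blood. It lies on chromosome 10 from 87858265 to 87937042, plus strand, and *Igf1os* overlaps it on the opposite strand, so that reads of both cannot be told apart unless strand was used in counting. The vehicle-treated mice had 338, 311, 274 and 303 CPM, and the ISOGK-treated mice 299.9, 296, 309 and 344 CPM. The ranges overlapped almost fully. The fitted fold was 1.02 with a 95% interval from 0.88 to 1.18 (log2 fold change 0.028, edgeR adjusted p = 0.894). The sign of the log2 fold change turned with scaling by library size alone (-0.10). It also turned without vehicle-treated mouse 3 or ISOGK-treated mouse 4 (-0.022 in either fit).

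*Igfals* encodes the acid-labile subunit, a leucine-rich protein made by hepatocytes that holds IGF1 and its binding protein in the large complex of the blood. The gene lies on chromosome 17 from 24865997 to 24882010, plus strand, and no other gene overlaps it. Vehicle-treated mice 1 to 4 had 62.5, 63.6, 76.7 and 95.1 CPM, and ISOGK-treated mice 1 to 4 had 52.8, 48.1, 45.6 and 41.9 CPM. All ISOGK-treated mice were lower, and they lay closer together than the vehicle-treated mice, with coefficients of variation of 9.71% and 20.4%. The mean level fell from 74.5 ± 15.2 to 47.1 ± 4.57 CPM (SD over 4 mice), by 36.8%, or by 0.66 on the log2 scale (95% interval -0.96 to -0.37, SE 0.14, edgeR adjusted p = 0.0133). This was the smallest p of the 10 genes and place 333 of the 12307 tested. The call held in all 16 alternatives, with log2 fold changes from -0.79 to -0.52. The smallest change, -0.52 (edgeR adjusted p = 0.0313), was that without vehicle-treated mouse 4, the mouse with muscle markers and the highest *Igfals* level.

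Of 3 *Igfals* promoters in RefSeq, the first and the second are shown because each holds the STAT motif. They run 5′ to 3′ on the plus strand, chr17:24877594-24877873 and chr17:24877981-24878260 in GRCm38. Capitals mark TTCNNNGAA, 236 and 58 bases before the start site, and in the second also the forkhead motif TGTTTAC, 242 bases before the start site.
Igfals first: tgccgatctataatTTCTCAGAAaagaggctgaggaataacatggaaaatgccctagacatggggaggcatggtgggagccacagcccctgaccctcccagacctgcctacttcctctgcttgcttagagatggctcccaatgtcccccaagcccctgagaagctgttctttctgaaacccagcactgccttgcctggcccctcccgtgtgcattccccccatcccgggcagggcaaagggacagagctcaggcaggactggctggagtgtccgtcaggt
Igfals second: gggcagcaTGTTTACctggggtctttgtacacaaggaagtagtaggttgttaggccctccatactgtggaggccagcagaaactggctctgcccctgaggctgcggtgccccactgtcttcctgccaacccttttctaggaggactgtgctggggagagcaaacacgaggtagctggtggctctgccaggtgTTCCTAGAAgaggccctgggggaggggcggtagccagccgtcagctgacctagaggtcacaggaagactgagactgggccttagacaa
The forkhead motif, searched as TGTTTAC or GTAAACA, was found in 3.65% of all promoters. Among the 12 promoters given for 8 of the 10 genes, 3 held the STAT motif, 1 the forkhead motif and 3 the insulin response letters CAAAACA or TGTTTTG, which 6.28% of all promoters held. The promoter of *Igf1* in the table held none of them.

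*Igfbp1* and *Igfbp2* encode binding proteins that the liver secretes and that bind free IGF1. *Igfbp1* lies on chromosome 11 from 7197782 to 7202546, plus strand. Its promoter is known for an insulin response element, a stretch bound by FOXO1 when insulin is low, and is shown for it. The window runs 5′ to 3′ on the plus strand, chr11:7197537-7197816 in GRCm38, with the letters CAAAACA in capitals, 108 bases before the start site.
Igfbp1: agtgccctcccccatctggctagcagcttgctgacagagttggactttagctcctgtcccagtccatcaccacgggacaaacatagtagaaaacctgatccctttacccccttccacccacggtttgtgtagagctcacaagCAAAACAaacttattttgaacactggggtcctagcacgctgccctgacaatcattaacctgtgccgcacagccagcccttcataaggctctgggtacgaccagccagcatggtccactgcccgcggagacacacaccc

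*Igfbp1* had the largest fitted change of the 10 genes, but did not pass the adjusted threshold. Vehicle-treated mice 1 to 4 had 243, 150.0, 131 and 52.4 CPM, a 4.64-fold range. ISOGK-treated mice 1 to 4 had 218, 209.9, 418 and 423 CPM. Vehicle-treated mouse 1 stood above ISOGK-treated mice 1 and 2, and the other 3 vehicle-treated mice stood below the whole ISOGK group. The fitted fold was 2.20 with a 95% interval from 1.02 to 4.77 (log2 fold change 1.14, unadjusted p = 0.0465, edgeR adjusted p = 0.199). Over the 16 alternatives the log2 fold change lay between 0.86 and 1.51, and 0 of them called the gene.

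*Igfbp2* (chromosome 1, 72824503 to 72852474, plus strand) was the gene with the most counts of the 10. It had 505, 505, 494 and 416 CPM in vehicle-treated mice 1 to 4 and 712, 568, 475 and 525 CPM in ISOGK-treated mice 1 to 4. ISOGK-treated mouse 3 was within the vehicle range. The fitted fold was 1.19 (95% interval 0.98 to 1.44, edgeR adjusted p = 0.262).

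*Insr* (chromosome 8, 3122061 to 3279617, minus strand, overlapped on the opposite strand by *Gm16180* and *Vmn2r-ps88*) encodes the insulin receptor. Its vehicle levels were 121, 119, 118 and 111 CPM, the tightest group of all 10 genes with a coefficient of variation of 3.53%. In ISOGK-treated mice they were 108, 136, 137 and 104 CPM, with 2 mice above and 2 below the vehicle range. The fitted fold was 1.03 (95% interval 0.88 to 1.21, log2 fold change 0.047, edgeR adjusted p = 0.832). The sign of the log2 fold change turned with library size alone (-0.077) and without ISOGK-treated mouse 2 (-0.011) or 3 (-0.023).

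*Irs1* and *Irs2* encode the adaptors that link the receptor to phosphoinositide 3-kinase. *Irs1* lies on chromosome 1 from 82233101 to 82291416, minus strand, and *Gm9747* overlaps it on the opposite strand. *Irs1* was low, with 10.1, 9.41, 11.7 and 12.1 CPM in vehicle-treated and 7.60, 14.5, 13.7 and 12.1 CPM in ISOGK-treated mice. Its fitted fold was 1.10 (95% interval 0.84 to 1.45, edgeR adjusted p = 0.685).

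*Irs2* lies on chromosome 8 from 10984681 to 11008458, minus strand, and *9530052E02Rik* overlaps it on the opposite strand. Vehicle-treated mice 1 to 4 had 19.2, 49.6, 23.2 and 23.9 CPM, and ISOGK-treated mice 1 to 4 had 25.3, 48.1, 74.9 and 67.8 CPM. ISOGK-treated mice 3 and 4, the highest for *Igfbp1*, were the highest for *Irs2* as well. The vehicle group did not share this order, as its mouse 1 was highest for *Igfbp1* (243 CPM) and lowest for *Irs2*. Whether the 2 genes vary together was not tested. Vehicle-treated mouse 2 was at the level of ISOGK-treated mouse 2, and the other vehicle-treated mice were below the whole ISOGK group. The fitted fold was 1.86 (95% interval 0.94 to 3.68, log2 fold change 0.89, edgeR adjusted p = 0.246). Without vehicle-treated mouse 2 the log2 fold change was 1.29 (edgeR adjusted p = 0.11).

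**Figure D2:**
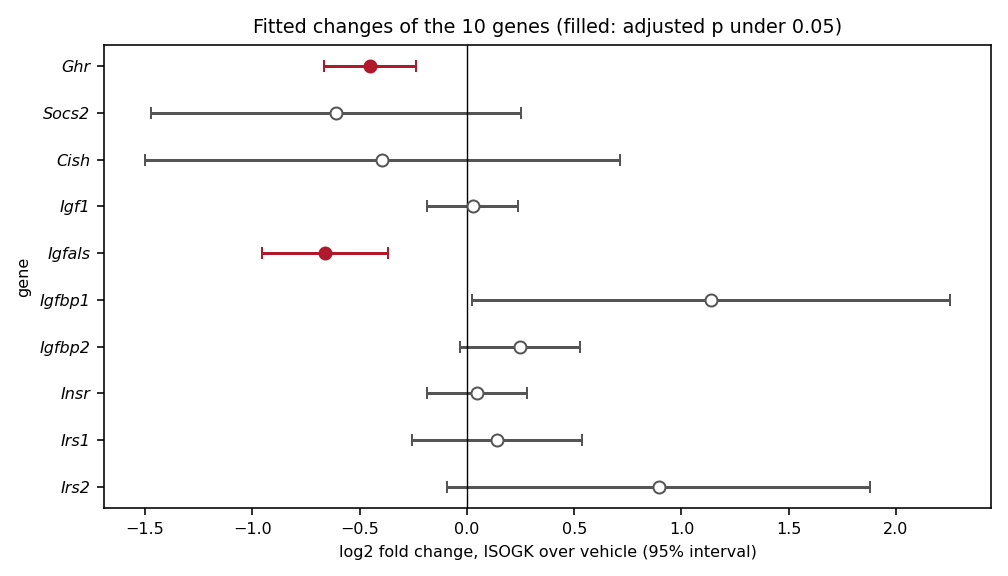
Fitted log2 fold change (ISOGK over vehicle, horizontal axis) of the 10 genes with its 95% interval; filled points passed an adjusted p under 0.05. *Ghr* (-0.45) and *Igfals* (-0.66) lie left of 0 with short intervals, and *Igfbp1*, *Irs2*, *Socs2* and *Cish* have the widest intervals.

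Levels of the 10 genes were compared with each other as CPM per kilobase of exon. In vehicle-treated mice the order was *Igfbp2* (260 ± 23.3 CPM per kilobase, SD, n = 4), *Igfbp1* (94.5 ± 51.4), *Igf1* (30.9 ± 2.64), *Ghr* (24.5 ± 1.42), *Igfals* (23.5 ± 4.79), *Insr* (8.53 ± 0.301), *Irs2* (4.58 ± 2.20), *Socs2* (3.19 ± 1.22), *Cish* (2.27 ± 0.449) and *Irs1* (1.19 ± 0.140). The ranges of *Ghr* and *Igfals*, of *Irs2* and *Socs2* and of *Socs2* and *Cish* overlapped, and those of the other neighbours did not. By group means the order was the same with ISOGK, but the ranges of *Ghr* and *Igfals*, of *Socs2* and *Cish* and of *Cish* and *Irs1* overlapped, *Cish* being above *Irs1* in 2 of 4 mice. *Igfbp1* there reached 208 ± 78.2 CPM per kilobase against 309 ± 55.2 for *Igfbp2*, and these ranges overlapped too. *Irs2* (8.54 ± 3.53) came within the range of *Insr* (8.82 ± 1.27). Exon lengths are those of all annotated exons together, and isoforms used in liver can be shorter.

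Ratios between genes of the same library do not depend on the scaling between libraries, and 4 pairs were compared. The log2 ratio of *Igf1* to *Igfals* counts was 2.06 ± 0.361 in the vehicle group (SD, n = 4) and 2.73 ± 0.229 in the ISOGK group. Every ISOGK-treated mouse was above every vehicle-treated mouse, by 0.67 on average (exact permutation test, two-sided, p = 0.0286, which no comparison of 4 with 4 mice can undercut, and p = 0.114 when adjusted over the 4 pairs). With *Igf1* nearly level (log2 fold change 0.028), this largely restates the fall of *Igfals* (-0.66) and is no further evidence. The log2 ratio of *Igfbp1* to *Igf1* was 1.22 higher with ISOGK, but vehicle-treated mouse 1 overlapped the ISOGK group (exact permutation test, p = 0.0571, adjusted p = 0.114). For *Irs2* to *Irs1* the difference was 0.78 (exact permutation test, p = 0.0857, adjusted p = 0.114), and for *Socs2* to *Ghr* it was -0.17 (exact permutation test, p = 0.714). No pair passed after adjustment.

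**Figure D3:**
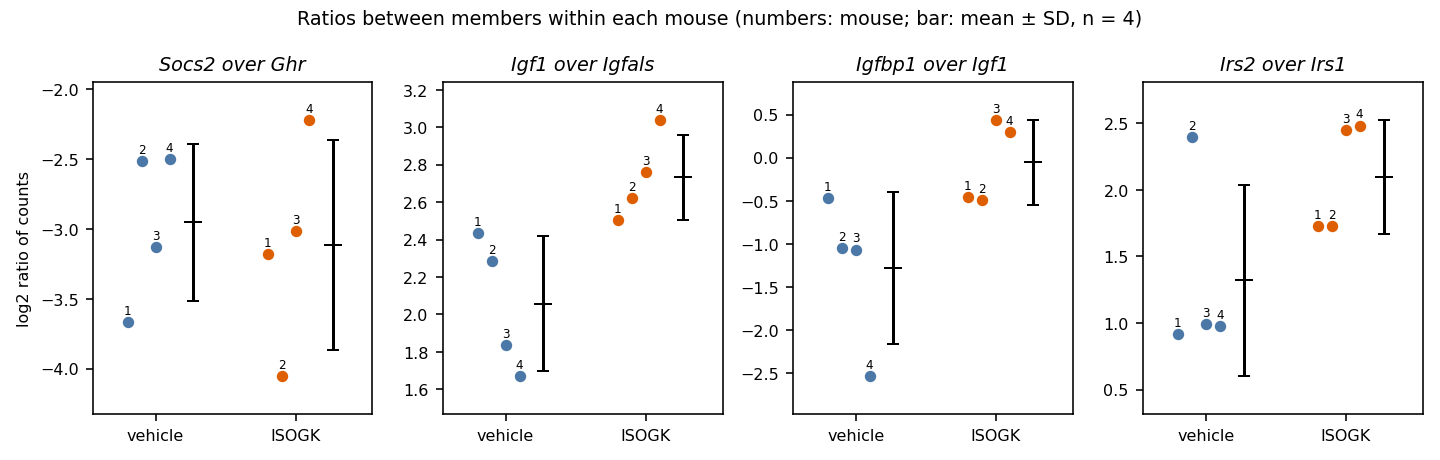
Log2 ratio of raw counts (0.5 added to each) between 2 genes of the same mouse for 4 pairs, in vehicle-treated (blue) and ISOGK-treated (orange) mice; numbers name the mouse and bars show mean ± SD. Only *Igf1* over *Igfals* separates the groups, with all ISOGK-treated mice above 2.43, the highest vehicle value. That separation largely restates the fall of *Igfals*.

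Other genes of the pathways were read from 8 lists, chosen with earlier results of these data known, of which 95 genes were tested. Of these, 7 were called higher and 8 lower, and the median log2 fold change was 0.00889. Over all tested genes 4.11% were called higher and 3.44% lower. The counts of the lists were not tested against these shares. Among 19 tested genes of the growth hormone receptor cascade, 2 were called lower and 0 higher, with a median log2 fold change of -0.035. *Prlr*, the prolactin receptor, a close relative of GHR that signals through JAK2 and STAT5 too, fell from a mean of 101 ± 16.7 to one of 65.4 ± 10.7 CPM (SD over 4 mice; log2 fold change -0.63, edgeR adjusted p = 0.0203). *Sirpa*, which encodes a membrane protein known from macrophages, fell from 79.8 ± 9.74 to 57.4 ± 7.91 CPM (log2 fold change -0.48, edgeR adjusted p = 0.0359). Kupffer cell markers, 6 genes of which 0 were called, summed to 924 to 1195 CPM with vehicle and 733 to 958 CPM with ISOGK (exact permutation test, p = 0.0571), and their part in the level of *Sirpa* was not tested. *Jak2* had 12.4 ± 1.49 and 8.26 ± 2.28 CPM (log2 fold change -0.58, edgeR adjusted p = 0.0735), and *Stat5b*, named after its values were seen, had 46.8 ± 2.65 and 52.6 ± 5.64 CPM (edgeR adjusted p = 0.312). For *Lnx1*, which encodes a ubiquitin ligase, the log2 fold change was -1.05 (edgeR adjusted p = 0.197). *Lnx1* was scarce, with 3 to 21 counts per library. The call for *Prlr* was lost without vehicle-treated mouse 2 or 4 or ISOGK-treated mouse 2, and that for *Sirpa* without vehicle-treated mouse 1, 2 or 3 or ISOGK-treated mouse 2 or 4. Without vehicle-treated mouse 2 or ISOGK-treated mouse 2, 0 genes of this list were called in edgeR.

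Among 8 tested genes of IGF binding and handling, 1 was called. *Igfbp6* encodes a binding protein that prefers IGF2. Its mean rose from 0.482 ± 0.452 to 4.08 ± 1.35 CPM (SD over 4 mice; log2 fold change 3.05, SE 0.57, edgeR adjusted p = 0.0136). It rested on 3, 1, 24 and 18 counts in vehicle-treated mice 1 to 4 and on 73, 113, 71 and 53 in ISOGK-treated mice, so that it was scarce in either group. With the replicate number as a block its adjusted p in edgeR was 0.0626. *Igfbp3* had 28.0 ± 5.28 and 21.0 ± 6.75 CPM (log2 fold change -0.42, edgeR adjusted p = 0.294), *Igfbp5* a log2 fold change of 0.73 and *Igfbp7* of 0.15, and 0 of these passed. *Igf2* had at most 19 counts in any library and was not tested.

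In the insulin receptor cascade 1 of 29 tested genes was called. *Pik3r1*, which encodes the regulatory subunit p85 alpha of phosphoinositide 3-kinase that IRS proteins bind, fell from a mean of 47.1 ± 7.7 to one of 26.0 ± 3.96 CPM (SD over 4 mice; log2 fold change -0.86, SE 0.14, edgeR adjusted p = 0.00436). The highest ISOGK-treated mouse had 29.9 CPM and the lowest vehicle-treated mouse 37.6 CPM. *Mtor* did not pass, with a log2 fold change of 0.31 and an adjusted p of 0.0526 in edgeR, nor did *Prkcz* (0.35 and 0.0679) and *Grb2* (-0.23 and 0.098). In each of them the groups did not overlap, as in 15.3% of all tested genes in either direction. Among 14 tested brakes on the insulin signal, 2 were called higher and 1 lower. For *Grb14*, an adaptor that blocks the receptor's kinase, the log2 fold change was 0.39 (edgeR adjusted p = 0.0447), and for *Ide*, which encodes an enzyme that degrades insulin, 0.36 (edgeR adjusted p = 0.0417). For *Ptprf*, a receptor phosphatase, it was -0.38 (edgeR adjusted p = 0.0384), and for *Trib1*, a pseudokinase gene that did not pass, -0.41 (edgeR adjusted p = 0.153). These 3 calls lay close to the threshold. Without vehicle-treated mouse 2 or 3, or ISOGK-treated mouse 1 or 3, 0 of the 14 brakes were called in edgeR, and with library size alone 0 were called higher.

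Genes that insulin is known to raise or lower in liver were read from 2 further lists. *Srebf1* and *Fasn* were known as lower from earlier results of these data when their list was made. Both lists were chosen with such results known, so that their counts and directions are no independent evidence. Of 3 tested genes that insulin raises, 2 fell and the median log2 fold change was -1.60. *Fasn*, the fatty acid synthase gene, had 118, 90.5, 141 and 103 CPM in vehicle-treated mice 1 to 4 and 50.4, 55.2, 63.9 and 48.3 CPM in ISOGK-treated mice 1 to 4. Every ISOGK-treated mouse was lower, with -1.06 as the log2 fold change (SE 0.14, edgeR adjusted p = 0.00163). For *Srebf1*, which encodes a driver of lipid synthesis, the log2 fold change was -1.60 (edgeR adjusted p = 0.00592), and that of *Angptl8* was -1.90 (edgeR adjusted p = 0.177). Of 4 tested genes that insulin lowers, 1 rose and the median was 0.43. *Pdk4*, a kinase that turns off pyruvate dehydrogenase, had 8.88, 6.80, 7.05 and 8.04 CPM with vehicle and 16.5, 29.5, 42.3 and 49.3 CPM with ISOGK, which gave a log2 value of 2.16 for the fold change (SE 0.31, edgeR adjusted p = 0.00547). *Pck1*, the gluconeogenic carboxykinase gene, had 2080 ± 249.7 and 2963 ± 658 CPM (SD over 4 mice; log2 fold change 0.51, edgeR adjusted p = 0.0679), and *G6pc* and *Ppargc1a* had log2 fold changes of 0.23 and 0.35 without a call. As for *Igfbp1* and *Irs2*, ISOGK-treated mice 3 and 4 were the highest for *Pdk4*. The same did not hold for *Pck1*, *G6pc* and *Ppargc1a*. ISOGK-treated mouse 4 was the lowest of its group for *Pck1* (2339.9 CPM) and the lowest of all mice for *Ppargc1a* (5.08 CPM). *G6pc* was highest in ISOGK-treated mice 2 and 3 (414 and 416 CPM).

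**Figure D4:**
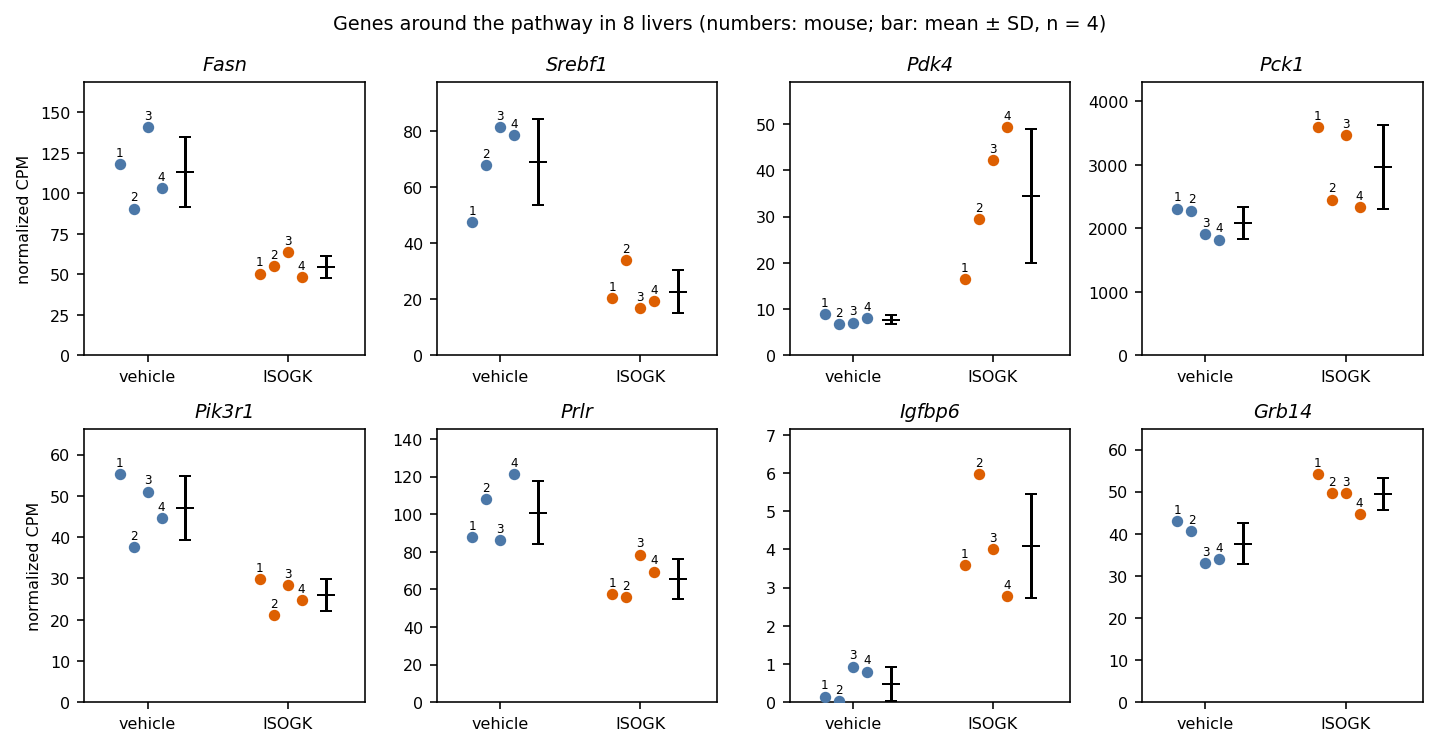
Normalized CPM (vertical axis from 0) of 8 genes from the pathway lists in vehicle-treated (blue) and ISOGK-treated (orange) mice; numbers name the mouse and bars show mean ± SD. *Fasn*, *Srebf1*, *Pik3r1* and *Prlr* lie lower and *Pdk4*, *Igfbp6* and *Grb14* higher in all ISOGK-treated mice. *Pck1* also separates the groups, as did 15.3% of all tested genes in either direction, but had an edgeR adjusted p of 0.0679.

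The pattern of growth hormone release differs between the sexes and sets the expression of many sex-biased liver genes, which were therefore read as well. Of 10 male-biased genes tested, 2 were called higher and 0 lower, with 8 fitted values above 0 and 0.59 as the median log2 fold change. The log2 fold change was 0.57 for *Gstp1* (edgeR adjusted p = 0.0316) and 0.53 for *Cyp2d9* (edgeR adjusted p = 0.0494), and these calls were lost in 7 and 12 of the 16 alternatives. *Mup20* and *Elovl3* had log2 fold changes of 0.61 and 0.99 (edgeR adjusted p = 0.0515 and 0.0635). *Hsd3b5* and *Slco1a1*, named after their values were seen, went the other way. *Hsd3b5* had 71.4 ± 14.3 and 17.3 ± 14.5 CPM (log2 fold change -2.04, edgeR adjusted p = 0.0708). Its groups did not overlap, as in 15.3% of all tested genes in either direction. For *Slco1a1* the log2 fold change was -0.79 (edgeR adjusted p = 0.11). The counts of this list moved with the fit. With library size alone, and without vehicle-treated mouse 2, 3 or 4 or ISOGK-treated mouse 2, 0 of its genes were called in edgeR, and without ISOGK-treated mouse 1 there were 0 higher and 2 lower. DESeq2 called 7 higher and 2 lower, and edgeR with the replicate block 6 higher and 1 lower.

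Of 19 female-biased genes, 15 were in the count table, and 8 of these passed the filter on low counts. Among the 8, 1 was called higher and 2 lower, and the median log2 fold change was -0.25 (0.0076 without ISOGK-treated mouse 4). *Cyp2b9* and *Cyp17a1* were known to move from earlier results of these data, in opposite directions (log2 fold changes of -4.07 and 1.85). *Atp6v0d2*, which encodes a proton pump subunit, fell from a mean of 9.61 ± 3.30 to one of 3.43 ± 1.42 CPM (SD over 4 mice; log2 fold change -1.49, edgeR adjusted p = 0.0361, lost in 7 of the 16 alternatives), and for *Slc22a26*, an organic anion transporter gene, the log2 fold change was -0.35 (edgeR adjusted p = 0.443). The *Cyp2b*, *Cyp2d*, *Gstp* and *Mup* genes have close copies between which reads could have been split.

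**Figure D5:**
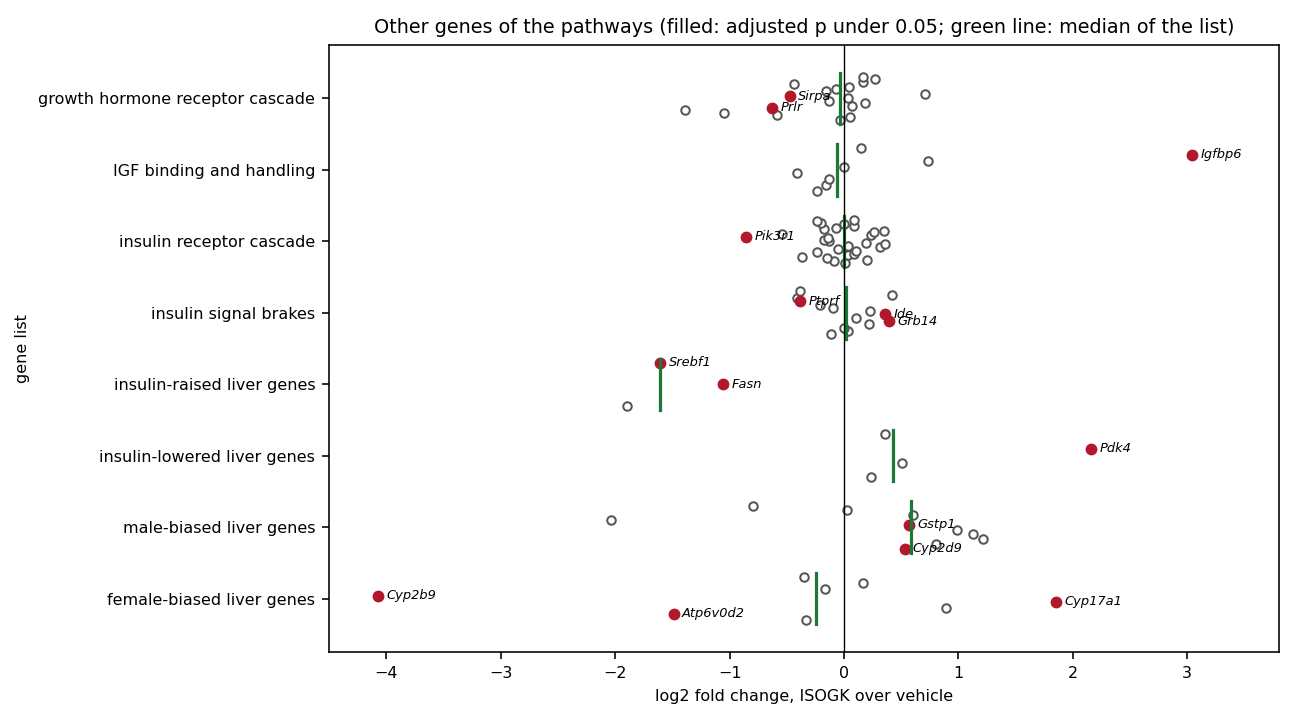
Log2 fold change (ISOGK over vehicle, horizontal axis) of every tested gene of the 8 lists; filled points passed an adjusted p under 0.05 and green lines mark the median of each list. The 3 insulin-raised genes (2 called) all lie below 0 and the 4 insulin-lowered genes (1 called) all above 0, while the receptor cascades centre near 0. The lists were chosen with earlier results of these data known, so that these directions are no independent evidence.

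The tested genes whose profiles over the 8 mice were most like those of the 2 called members were named by the root mean square difference of log2 CPM, each profile centred on its own mean. For *Ghr* these were *Mipep* (0.049), *Pdk2* (0.050) and *Ttc39c* (0.065), against a median of 0.34 over all genes. *Pdk2*, a pyruvate dehydrogenase kinase gene, had 95.9 ± 2.46 CPM with vehicle and 70.2 ± 5.81 CPM with ISOGK (SD over 4 mice). For *Igfals* they were *Ift122* (0.11), *Abhd14b* (0.11) and *Acsm5* (0.12), against a median of 0.43. Profiles were not centred within groups, so that a shared fall with ISOGK counts as likeness. The smallest of all distances lie under their median by construction.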

How the data were processed

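Liver RNA of 8 mice, 4 per group, was sequenced with 1 library per mouse. Per the labels and the paper's methods, the authors mapped single-end reads to mm10 with HISAT2 and obtained gene counts from StringTie; whether strand was used is not given in the sources used here. The deposited table holds raw whole-number counts by gene symbol. Columns named DMSO were taken as the vehicle group.

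Genes were filtered with filterByExpr (minimum count of 10, minimum total of 15), scaled with TMM and tested with the robust quasi-likelihood test of edgeR 4.0.16 in R 4.3.3, with Benjamini-Hochberg adjustment over 12307 genes. Standard errors are the log2 fold change divided by the root of F. Single values were compared by exact permutation on log2 CPM with a prior count of 2. Alternatives used DESeq2 1.42.0, limma 3.58.1 (voom), other scaling and filters, and each mouse left out. Labels do not say that mice are paired, so the replicate number entered as a block only in an alternative. Libraries within a group differed by a chi-square of at least 18.1 per gene, far above sampling noise. Counting error is small for genes with many counts, but not for scarce ones such as *Igfbp6* (1 to 24 counts with vehicle) and *Lnx1*. Intervals cover the spread between mice (common biological coefficient of variation 0.164). The members and lists were chosen with earlier results of these data known. Named genes were the 10 members, the 4 of each list with the smallest p, and for called members the 3 nearest profiles; exceptions are marked, and some list genes are not reported here. Positions are from GENCODE M21 and promoters from RefSeq, GRCm38.p6, which is the same build.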

Additional observations from a re-analysis of the deposited data

Results flagged for a closer look

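Within the vehicle group, *Igfbp2* was lowest in mouse 4, at 416 CPM, and the other 3 mice had 494 to 505 CPM. The distance from mouse 4 to its neighbour made up 0.88 of the whole spread, beyond what Dixon's 95% critical value for 4 values allows. Mouse 4 also carried the skeletal muscle markers (69.9 CPM in sum), whose part in this value was not tested. Leaving it out gave *Igfbp2* no call.

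*Irs2* was highest in vehicle-treated mouse 2, at 49.6 CPM, with 19.2 to 23.9 CPM in mice 1, 3 and 4. Here the distance made up 0.843 of the spread. In all, 22 sets of 4 values were examined, for the 10 genes and the total count, and 2 lay beyond the critical value where chance gives 1.1.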

How the results depend on the processing

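Across the 16 alternatives *Igfals* kept its call in 16 and *Ghr* in 13, and none of the other 8 members gained one; with DESeq2 and limma-voom too, 2 members were called lower and 0 higher. Leaving out 1 mouse gave 1 to 2 members called lower. The replicate block also left 2 called lower (*Ghr* -0.46, *Igfals* -0.64, edgeR adjusted p = 0.0277 and 0.0393). Deviations of same-numbered mice correlated at -0.014 to 0.085. Correlations between mice of unlike number were not computed, so these values do not settle whether mice were paired. Scaling by library size alone moved the median of all genes to -0.13 on the log2 scale and turned the sign of *Igf1* (-0.10), *Insr* (-0.077) and, in mean log2 CPM, of *Igf1* (-0.10), *Insr* (-0.095) and *Irs1* (-0.023). It also left 262 genes called higher and 804 lower, against 506 and 423 with TMM. Leaving out 1 mouse moved the log2 fold change of *Igf1* from -0.022 to 0.078 (below 0 without vehicle-treated mouse 3 or ISOGK-treated mouse 4) and that of *Insr* from -0.023 to 0.11 (below 0 without ISOGK-treated mouse 2 or 3). The log2 ratio differences ranged over the fits leaving out 1 mouse from -0.46 to 0.15 for *Socs2* over *Ghr*, from 0.55 to 0.80 for *Igf1* over *Igfals*, from 0.81 to 1.49 for *Igfbp1* over *Igf1* and from 0.64 to 1.14 for *Irs2* over *Irs1*.

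Of the other pathway genes, 7 were called higher and 8 lower; DESeq2 called 15 higher and library size alone 3 higher, and leaving out 1 mouse gave 3 to 9 higher and 4 to 12 lower. *Pik3r1*, *Srebf1*, *Fasn*, *Pdk4*, *Cyp2b9* and *Cyp17a1* were called in every alternative that tested them, the other 9 called genes lost the call in at least 1, and 0 of the 15 reversed. Over all genes, 929 were called, 1405 with DESeq2, and 379 to 1235 with 1 mouse left out. With 4 mice a group, changes such as those of *Igfbp1* and *Irs2* had intervals too wide to show or to set aside a doubling.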
